A study of Homo sapiens with 12 samples.

Results

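The knock-down of CNOT2 was followed within its own cell line, by setting pIND CNOT2 +Dox cells against pIND CNOT2 -Dox cells. The members were the 4 arrays titled as CNOT2 with or without DOX, of 12 arrays in the series, and the arrays with the same replicate number formed a pair. All 4 are of HEK-293T cells, a human embryonic kidney line, in the form of cell clones that carry the pINDUCER plasmid with a Dox-inducible, miR30-based shRNA against CNOT2. The +Dox group (2 arrays) received 1 µg/ml doxycycline (Dox) for 4 days and the -Dox group (2 arrays) remained untreated. The pIND Luci cells, whose shRNA targets firefly luciferase, served as a control for Dox, with 2 +Dox and 2 -Dox arrays. The lines for CNOT1 and CNOT3 had 1 +Dox and 1 -Dox array each. For the second Luci array without Dox the title and a further label disagree on Dox, and the title was followed. The sources call the replicates technical in one place and biological and technical in another, so p-values measure only the spread between these arrays.

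The CCR4-NOT complex shortens the poly(A) tail of mRNAs and so starts their decay, and it also acts on transcription and on translation. CNOT2 binds the scaffold CNOT1 together with CNOT3, and this module keeps the complex stable. MHC class II molecules present peptides to T helper cells, are normally restricted to antigen-presenting cells and are controlled by factors bound at the W, X and Y boxes of their promoters, the Y box being a CCAAT element read by NF-Y.

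Values were log2 intensities, and a difference is the +Dox value minus the -Dox value of the same replicate number. The intensities had been quantile-normalized, with a median of 3.34 on every array, and between 18 and 50 spots per CNOT2 array had no value. Genes were kept when their mean over the CNOT2 and Luci arrays reached 2.96, which left 15031 of 20042 genes, each represented by its brightest spot. That mean includes the CNOT2 +Dox arrays, so a gene dim elsewhere could be kept through high +Dox values. Of the 17 markers of HEK-293 cells all passed this filter, whereas 4 of 11 B cell, 5 of 12 T cell and 10 of 15 myeloid markers did. Across genes the 2 CNOT2 pairs had a Pearson's r of 0.98 between +Dox and -Dox, and the -Dox arrays of both replicates had an r of 0.97.

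CNOT2 itself was less abundant in +Dox cells of both pairs. Its log2 intensity was 8.96 and 8.38 in CNOT2 +Dox cells (replicates 1 and 2), against 9.86 and 9.72 in CNOT2 -Dox cells. Both +Dox values lay below both -Dox values, and they were the lowest of all 12 arrays, on which the others lay between 9.72 and 10.76. The mean difference was -1.12 ± 0.23 (SE), which did not pass the test across genes (limma with a replicate block, adjusted p = 0.444). In Luci cells Dox gave differences of 0.28 and -0.19 for CNOT2. A second, dim CNOT2 spot had values of 2.67 and 3.44 in +Dox and 2.57 and 2.36 in -Dox cells, so that its differences were not negative.

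No gene passed an adjusted p of 0.05 in this comparison (limma, 0 of 15031 genes, 0.0%). The lowest adjusted p was 0.388, and 1398 genes (9.3%) had an unadjusted p under 0.05, 803 of them higher and 595 lower in +Dox cells. With an intensity trend and a robust prior, 1 gene passed, RINL with an adjusted p of 0.0428. The genes were therefore described by their size in both pairs. In replicate 1, 667 genes were >2-fold higher and 524 >2-fold lower in +Dox cells. In replicate 2 these were 1362 and 884 genes. In both pairs 195 genes were >2-fold higher (1.3% of the genes tested) and 88 were >2-fold lower (0.585%). The 195 genes made up 29.2% of those higher in replicate 1 and 14.3% of those higher in replicate 2. Over all 15031 genes the +Dox and -Dox groups did not overlap for 2336 higher and 2150 lower genes. They did not overlap for 186 of the 195 genes and 73 of the 88 genes. For genes picked by their size in both pairs, separated groups therefore add little. Another 98 genes were >2-fold different in opposite directions, and 86 of them lay in the dimmest of 4 equal bins of genes ordered by mean level.

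**Figure D1:**
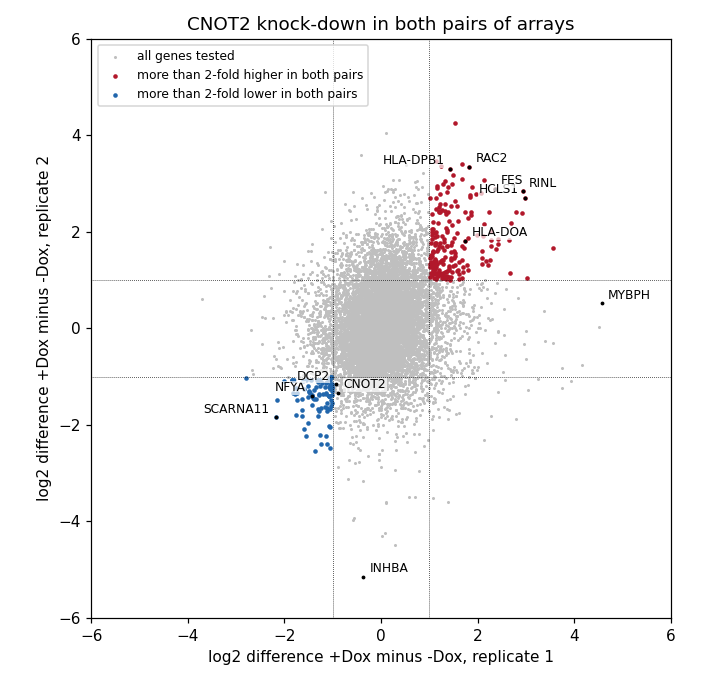
Log2 difference between CNOT2 +Dox and CNOT2 -Dox cells in replicate 1 (x axis) and replicate 2 (y axis), 1 point per gene tested. The 195 genes >2-fold higher in both pairs are red and the 88 genes >2-fold lower in both are blue, with dotted lines at 2-fold, and most genes lie near the centre.

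The pairs were only loosely related across genes (r = 0.2, no test, since genes are not independent), and 57.2% of the genes had the same sign in both. This depended on brightness, with an r of 0.11 in the dimmest bin and 0.3, 0.32 and 0.29 in the brighter bins. The dimmest bin held 113 of the 195 higher and 63 of the 88 lower genes, and the brightest bin held 2 and 0. The median level of the 195 genes was 4.42 and that of the 88 genes 3.92, compared with 7.32 for all genes. At the margin, C19orf47 was just inside the limit with a smaller difference of 1.01 and SRPK3 just outside with 1.0.

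The same count in Luci cells, which lack an shRNA against a human gene, gave 87 genes higher (0.579%) and 84 lower (0.559%) in +Dox cells of both pairs. The number of higher genes was thus larger in the CNOT2 line, 195 against 87, and that of lower genes was 88 against 84, a comparison with no test. The difference between both Dox effects passed an adjusted p of 0.05 for 0 of 15031 genes (limma), with 759 genes at an unadjusted p under 0.05. The second CNOT2 pair resembled the second Luci pair across genes (r = 0.4), although they share no array. The first pairs of both lines had an r of 0.029. Of the 195 genes, 16 (8.21%) were >2-fold higher with Dox in the first Luci pair, against 3.52% of all genes, and 52 (26.7%) in the second, against 8.93% of all genes.

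RINL led the genes with the largest difference in both pairs, and HCLS1 and FES among them are known from blood cells. RINL, a relative of the Ras and Rab interactors, was at 7.88 and 8.06 in CNOT2 +Dox cells, against 4.94 and 5.22 in CNOT2 -Dox cells. HCLS1, an actin regulator of hematopoietic cells related to cortactin, was at 6.0 and 5.98 in +Dox cells, against 3.02 and 3.27 in -Dox cells. FES, a cytoplasmic tyrosine kinase of myeloid cells, was at 4.83 and 6.13 in +Dox cells, against 2.47 and 3.24 in -Dox cells. For all these genes both +Dox arrays lay above both -Dox arrays, as held for 186 of the 195 genes. By the rule that picked them, the difference was more than 2-fold in each pair. All Luci arrays lay below the CNOT2 +Dox arrays. The differences were 2.89 ± 0.25 for RINL, 2.85 ± 0.29 for HCLS1 and 2.63 ± 0.21 for FES (mean ± SE, limma, adjusted p = 0.388 for each). Set against the Dox effect in Luci cells they were 3.29 ± 0.36, 3.09 ± 0.41 and 3.51 ± 0.30 (adjusted p = 0.728 for each). RINL was also higher with Dox in the CNOT3 line, with a difference of 2.45, but not in the CNOT1 line, with -0.43.

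**Figure D2:**
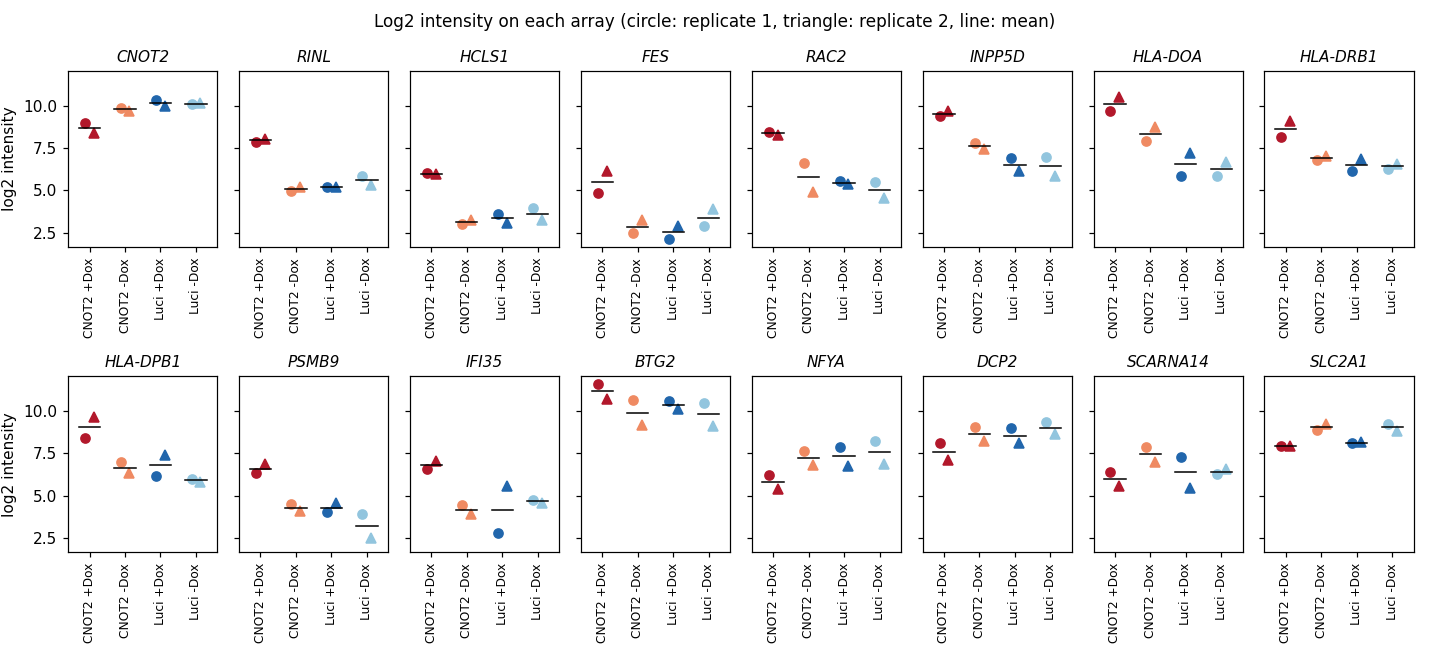
Log2 intensity of 16 genes on each array, with the CNOT2 line (+Dox, then -Dox) and the Luci line (+Dox, then -Dox) along the x axis, replicate 1 as circles, replicate 2 as triangles and the mean of both as a line. CNOT2 is lowest in CNOT2 +Dox cells, at 8.96 and 8.38, where RINL is highest, at 7.88 and 8.06.

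Of the genes named for signalling in blood cells, 15 of 19 were tested and 4 were >2-fold higher in both pairs (26.7%, against 1.3% of all genes), namely RAC2, INPP5D, HCLS1 and FES. This list was chosen with earlier results of these data known, so its count and medians are no independent evidence. The median difference of the list was 0.55 in replicate 1 and 0.78 in replicate 2, and 0.54 for the mean of both, whereas all genes had 0.01. RAC2, a GTPase of hematopoietic cells, was at 8.47 and 8.28 in CNOT2 +Dox cells, against 6.64 and 4.93 in CNOT2 -Dox cells. Further, dimmer spots of RAC2 had smaller differences, of 0.72 and 1.0 and of 0.54 and -0.05. INPP5D, the phosphatase SHIP1, was at 9.39 and 9.68 in +Dox cells, against 7.80 and 7.46 in -Dox cells. Neither gene overlapped between the groups, as held for 186 of the 195 genes. The Luci arrays lay between 4.53 and 5.56 for RAC2 and between 5.85 and 6.98 for INPP5D. INPP5D was thus brighter in both CNOT2 -Dox arrays than on any Luci array. PTPRC, the pan-leukocyte marker CD45, stayed below the filter, with 3.78 and 2.72 in +Dox cells and 3.23 and 2.38 in -Dox cells. The summed linear intensity of the 15 myeloid markers was 173 and 181 in +Dox cells and 150 and 168 in -Dox cells, that of the 12 T cell markers 369 and 384 against 339 and 375, and that of the 11 B cell markers 294 and 284 against 339 and 220. No marker of these 3 lists was >2-fold different in the same direction in both pairs. Of all genes 1.3% were higher and 0.585% lower, so lists this short would hold few.

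Of the lists examined, the MHC class II chains had the highest median difference. Of 18 chains and pseudogenes on the array, 14 were tested, 7 were >2-fold higher in both pairs (50% against 1.3% of all genes) and none was >2-fold lower. The median difference was 1.61, with 1.08 in replicate 1 and 1.94 in replicate 2. The study selected these genes with arrays of this series, so the count is no independent evidence. In Luci cells the median of the same chains was 0 in replicate 1 and 1.03 in replicate 2, and the median of the CNOT2 difference minus the Luci difference was 1.17.

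HLA-DOA, which regulates peptide loading, was at 9.67 and 10.55 in CNOT2 +Dox cells, against 7.92 and 8.74 in CNOT2 -Dox cells. HLA-DRB1, a beta chain, was at 8.14 and 9.11 in +Dox cells, against 6.79 and 7.03 in -Dox cells. HLA-DPB1, the beta chain of HLA-DP, was at 8.41 and 9.65 in +Dox cells, against 6.97 and 6.34 in -Dox cells. The groups did not overlap for any of these, as held for 186 of the 195 genes. The differences were nearly equal in both pairs for HLA-DOA (1.75 and 1.81) but not for HLA-DPB1 (1.44 and 3.31). Their mean differences were 1.78 ± 0.21, 1.72 ± 0.25 and 2.38 ± 0.54 (SE, limma, adjusted p = 0.388, 0.388 and 0.444). In Luci cells HLA-DPB1 had differences of 0.14 and 1.59 and HLA-DOA 0.02 and 0.54. Without Dox, HLA-DOA was brighter in CNOT2 cells, at 7.92 and 8.74, than in Luci cells, at 5.86 and 6.65.

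HLA-DMA, part of the HLA-DM molecule that helps peptides bind, was at 7.88 and 8.0 in CNOT2 +Dox cells, against 6.61 and 5.54 in CNOT2 -Dox cells. Its second difference of 2.46 had a counterpart of 2.54 in the second Luci pair, while the first pairs had 1.27 in CNOT2 and 0.29 in Luci cells. HLA-DOB (1.23 and 1.76), HLA-DRB4 (1.45 and 2.54) and HLA-DRB5 (1.86 and 2.42) completed the 7 chains. Of the other tested chains HLA-DPA1 had 0.92 and 1.06, HLA-DMB 0.76 and 2.89, HLA-DQB1 0.27 and 1.27, and HLA-DRB3 0.39 and 2.07, while HLA-DQB2 (-0.47 and 0.52) and HLA-DQA2 (0.57 and -0.82) differed in sign. The HLA-DRB genes are close paralogs, so their spots cannot be told apart with certainty. All 10 spots of HLA-DRB1 were higher in both pairs, 8 of them >2-fold, as were 4 of 5 spots of HLA-DPB1 and both of HLA-DMA, while the second spot of HLA-DOA, at background, was not. HLA-DRA, the alpha chain that pairs with HLA-DRB, was dim, at 2.89 and 3.09 in +Dox cells, against 4.04 and 3.10 in -Dox cells. The invariant chain CD74 and the master regulator CIITA did not pass the filter.

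Because the Y box is a CCAAT element, the promoters of the chains just described are printed with every CCAAT, on either strand (ATTGG), in capitals. They cover 250 bases before to 50 bases after the RefSeq start (GRCh38.p14, chromosome 6) and are written 5′ to 3′ along the gene's strand.
HLA-DOA (chr6:33009542-33009841, minus strand): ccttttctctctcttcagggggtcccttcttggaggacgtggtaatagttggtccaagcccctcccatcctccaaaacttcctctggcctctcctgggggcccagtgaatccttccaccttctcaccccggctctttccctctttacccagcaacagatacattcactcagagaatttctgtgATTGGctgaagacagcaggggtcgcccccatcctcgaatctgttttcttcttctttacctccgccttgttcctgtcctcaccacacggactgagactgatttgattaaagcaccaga
HLA-DRB1 (chr6:32589799-32590098, minus strand): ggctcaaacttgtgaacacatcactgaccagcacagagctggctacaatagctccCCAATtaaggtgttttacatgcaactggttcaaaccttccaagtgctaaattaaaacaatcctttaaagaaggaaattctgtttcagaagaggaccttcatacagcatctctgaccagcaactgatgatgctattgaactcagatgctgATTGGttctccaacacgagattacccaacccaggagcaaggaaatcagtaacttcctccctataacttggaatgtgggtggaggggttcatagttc
HLA-DPB1 (chr6:33075740-33076039, plus strand): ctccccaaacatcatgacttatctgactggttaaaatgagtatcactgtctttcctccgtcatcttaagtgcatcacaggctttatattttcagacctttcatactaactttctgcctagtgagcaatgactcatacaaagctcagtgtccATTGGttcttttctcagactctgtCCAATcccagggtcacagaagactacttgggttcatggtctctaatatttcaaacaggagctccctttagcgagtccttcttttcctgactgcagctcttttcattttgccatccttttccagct
HLA-DMA (chr6:32953048-32953347, minus strand): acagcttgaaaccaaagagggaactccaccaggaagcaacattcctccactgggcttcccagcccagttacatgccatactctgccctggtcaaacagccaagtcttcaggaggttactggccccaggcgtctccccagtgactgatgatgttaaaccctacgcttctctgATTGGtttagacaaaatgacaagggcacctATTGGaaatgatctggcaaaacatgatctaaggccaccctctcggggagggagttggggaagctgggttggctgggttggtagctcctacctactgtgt
HLA-DOA holds the motif at 1 place and HLA-DRB1, HLA-DPB1 and HLA-DMA at 2 places each. Of the 14 tested chains 11 had a promoter in the RefSeq table and 10 of these (90.9%) held CCAAT, whereas 39.7% of all 27305 genes with a promoter and 34.6% of all 35116 promoters of this length did. Of the 10528 tested genes with a promoter, 4496 (42.7%) held it. Among the genes >2-fold higher in both pairs the motif was found for 44 of 118 (37.3%), and among those lower for 26 of 56 (46.4%). A match is only a description of the letters and no sign of binding.

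None of the 7 tested factors that act on these promoters was >2-fold higher in both pairs. With 1.3% of all genes higher, this says little about so few genes. NFYA, the DNA-binding subunit of NF-Y, was at 6.21 and 5.41 in CNOT2 +Dox cells, against 7.64 and 6.81 in CNOT2 -Dox cells. It was the only one of the 7 that was >2-fold lower in both pairs (14.3%, against 0.585% of all genes), with -1.42 ± 0.22 (SE, limma, adjusted p = 0.388). Its groups did not overlap, as held for 73 of the 88 lower genes, and a second spot of NFYA had differences of -0.45 and 1.0. NFYB had differences of -0.92 and -0.62, RFX5 of -0.02 and -0.11, and RFXANK of 0.24 and -0.04. NFYA differed by -0.39 and -0.10 in Luci cells.

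Within the class II region, from HLA-DRA to HLA-DPB2, 6 of 12 tested chains and 1 of 5 other genes were >2-fold higher in both pairs. Of all genes tested 1.3% were. The study selected the chains with arrays of this series, and 5 other genes are too few for a contrast. The 1 other gene was PSMB9, a subunit of the immunoproteasome. It was at 6.32 and 6.86 in CNOT2 +Dox cells, against 4.48 and 4.10 in CNOT2 -Dox cells. Its neighbour TAP1, of the peptide transporter, had smaller differences of 0.57 and 0.55, and BRD2, a chromatin reader between HLA-DMA and HLA-DOA, had 0.15 and -0.03. PSMB9 was also 2.07 higher in the second Luci pair, compared with 0.08 in the first.

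**Figure D3:**
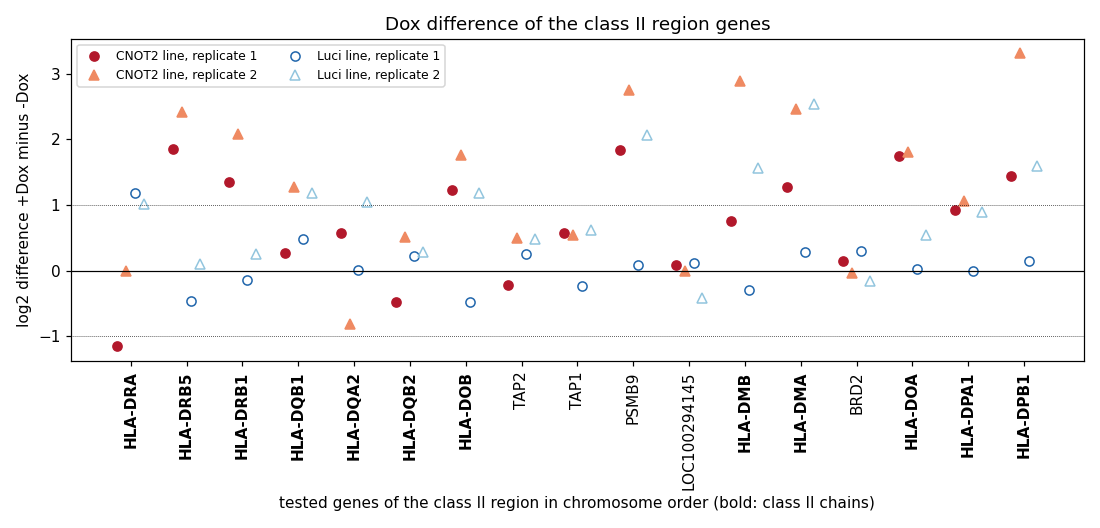
Log2 difference between +Dox and -Dox cells for the tested genes of the class II region in chromosome order, for both CNOT2 pairs (filled, replicate 1 as circles and replicate 2 as triangles) and both Luci pairs (open). HLA-DRB5, HLA-DRB1, HLA-DOB, PSMB9, HLA-DMA, HLA-DOA and HLA-DPB1 lie above 1 in both CNOT2 pairs, and PSMB9 and several chains also do in the second Luci pair.

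Of 18 tested genes of MHC class I presentation 2 were >2-fold higher in both pairs (11.1%, against 1.3% of all genes), PSMB9 and ERAP2, a peptide-trimming protease (1.29 and 2.99). Of the 18 genes 10 were positive in both pairs (55.6%, against 29.3% of all genes), among them PSME1, a proteasome activator subunit, with 0.94 and 1.34 and TAPBP, which links the transporter to class I molecules, with 0.59 and 0.52. HLA-B differed by -0.22 and 0.02, HLA-C by 0.09 and 0.13, and B2M by 0.13 and -0.10. Of the interferon-stimulated genes 32 of 49 were tested, 3 were >2-fold higher in both pairs (9.38%, against 1.3% of all genes) and none lower, and 21 were positive in both (65.6%, against 29.3% of all genes). Their median was 0.26 in replicate 1 and 1.04 in replicate 2, compared with 0.04 and 0.41 in Luci cells. IFI35 was at 6.56 and 7.02 in CNOT2 +Dox cells, against 4.42 and 3.94 in CNOT2 -Dox cells. PARP10, a mono-ADP-ribosyltransferase, was at 5.49 and 6.95 in +Dox cells, against 3.41 and 4.14 in -Dox cells. Neither overlapped between the groups, as held for 186 of the 195 genes. IFIH1, the RNA sensor MDA5, completed the list with 1.06 and 1.99. TMEM173, the adaptor STING, had 1.27 and 1.42, but ISG15 (0.60 and -0.65), a classical marker of the response, differed in sign, and MX1 and OAS1 did not pass the filter.

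The complex to which CNOT2 belongs was read here at the mRNA level only. For proteins, the paper reports that lowering CNOT2 or CNOT3 also reduced other subunits. Of the 12 tested CCR4-NOT subunits, CNOT2 among them, none was >2-fold different in both pairs, and the median was -0.07. Of all genes 1.3% were higher and 0.585% lower in both pairs, so a list this short would hold few. CNOT1 had differences of -0.67 and 0.09, CNOT3 of 0.24 and -0.02, and the deadenylases CNOT7 and CNOT8 of -0.03 and -0.09 and of -0.01 and -0.40. RQCD1, the subunit now called CNOT9, had 0.40 and 0.81. BTG2, an antiproliferative protein that binds the deadenylase, was at 11.60 and 10.72 in CNOT2 +Dox cells, against 10.66 and 9.17 in CNOT2 -Dox cells. Both +Dox values exceeded both -Dox values, with a mean difference of 1.25 ± 0.30 (SE, limma, adjusted p = 0.444), and the Luci differences were 0.11 and 0.99. DCP2, the decapping enzyme, was at 8.09 and 7.08 in +Dox cells, against 9.03 and 8.24 in -Dox cells. Both +Dox values lay below both -Dox values, with differences of -0.94 and -1.16 (Luci -0.39 and -0.53) and a mean of -1.05 ± 0.18 (SE, limma, adjusted p = 0.388). Among 31 other decay factors and 13 genes of microRNA silencing none was >2-fold different in both pairs, with medians of -0.08 and -0.18. At the shares over all genes, these lists too would hold few such genes.

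**Figure D4:**
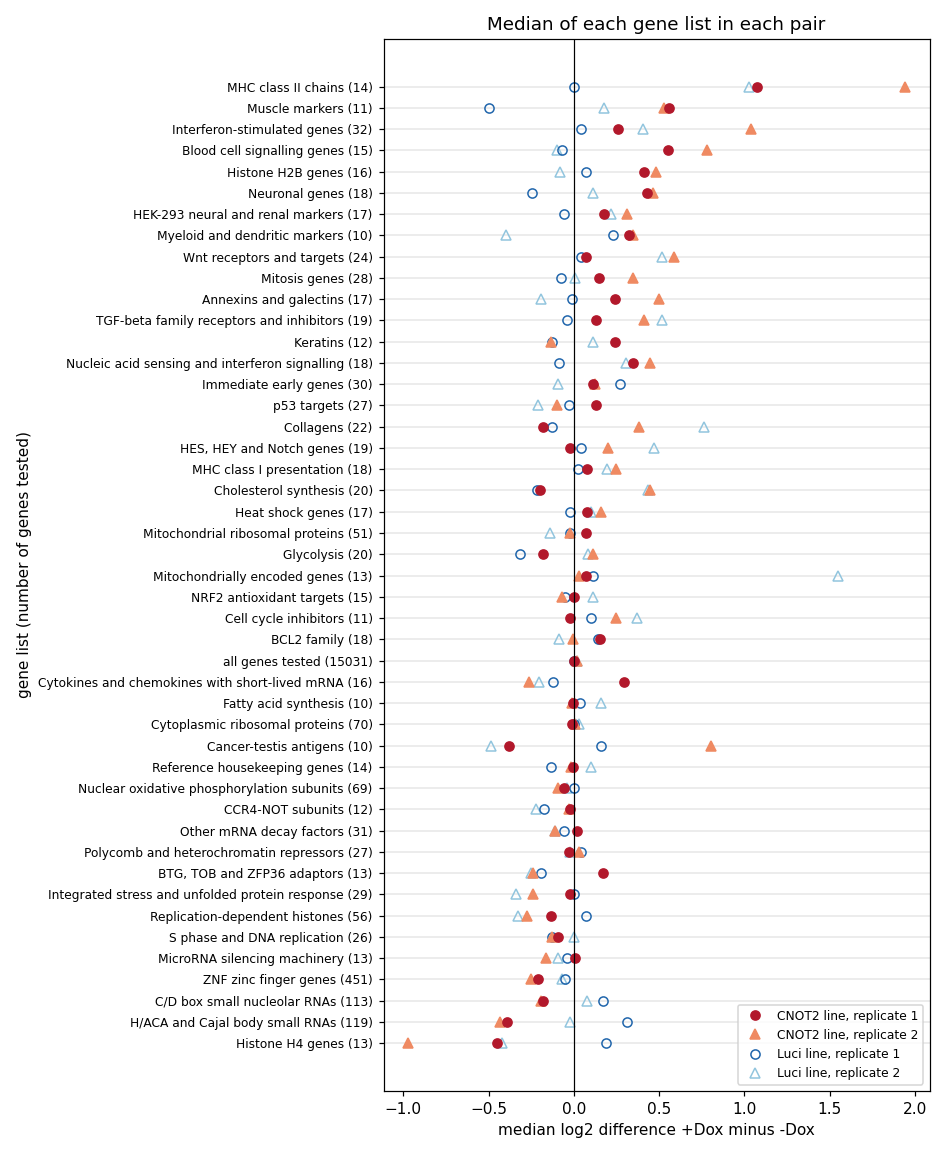
Median log2 difference between +Dox and -Dox cells for gene lists with at least 10 tested genes (number in parentheses) in both CNOT2 pairs (filled) and both Luci pairs (open), sorted by the median of the genes' mean differences in the CNOT2 line. The MHC class II chains stand at the top with 1.08 and 1.94 and the histone H4 genes at the bottom with -0.45 and -0.97.

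Of 11 tested muscle markers 2 were >2-fold higher in both pairs (18.2%, against 1.3% of all genes), CKM, the muscle creatine kinase, and DES, the intermediate filament desmin. DES was at 7.21 and 7.14 in CNOT2 +Dox cells, against 5.51 and 5.98 in CNOT2 -Dox cells. CKM was at 4.49 and 5.45 in +Dox cells, against 2.51 and 3.52 in -Dox cells. Both genes were separated between the groups, as were 186 of the 195 genes. DES had negative differences in both Luci pairs (-0.55 and -0.51). MYOD1, the muscle determination factor, had 0.56 and 1.02, and ACTA1 -1.02 and -0.69. RAB3C, a GTPase of synaptic vesicles, was at 5.52 and 4.88 in +Dox cells, against 3.25 and 3.18 in -Dox cells, while SLC17A7, the vesicular glutamate transporter, had -1.28 and -1.39. A second, dim spot of RAB3C had differences of -0.1 and 0.14. VAMP8, a SNARE protein, and APOE, the apolipoprotein E, were the 2 genes of the brightest bin. VAMP8 was at 12.06 and 11.69 in +Dox cells, against 10.94 and 10.25 in -Dox cells, and APOE at 11.83 and 12.48, against 10.75 and 11.29. These 2 genes, IRF8 (1.09 and 1.14, Luci 0.75 and 0.80), a transcription factor of myeloid cells, and S100A4 (1.04 and 1.15) were picked after their values were seen.

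The remaining leading genes were mostly dim in -Dox cells. TAC3, which encodes neurokinin B, was at 5.65 and 6.55 in CNOT2 +Dox cells, against 2.72 and 4.16 in CNOT2 -Dox cells. TLE6, a Groucho-related corepressor, differed by 2.79 and 2.41, >2-fold on both of its spots, and by -0.77 and 1.99 in Luci cells. TNS1, the focal adhesion protein tensin, differed by 2.70 and 2.19, C21orf90 by 2.24 and 2.42, POLR2M by 2.13 and 2.17, and DUSP13, a phosphatase, by 2.27 and 2.01. Further, dim spots of TNS1 had 0.77 and 0.16 and -1.21 and -0.58. ZNF541 (1.97 and 2.78), CHST4 (2.11 and 1.91) and B3GNT3 (1.88 and 2.93), both enzymes of glycan synthesis, completed the list. Of these, POLR2M and CHST4 were also >2-fold higher in the first Luci pair, by 1.90 and 1.60. In the second Luci pair TLE6, TNS1 (1.84), B3GNT3 (1.60) and ZNF541 (1.01) were >2-fold higher. Of the 195 genes 65 had further spots. Of these 150 spots 75 were positive in both pairs and 25 were >2-fold higher in both. With a mean of at least 2.96 over the 4 CNOT2 arrays, 75 spots were left, of which 54 were positive in both pairs and 25 >2-fold higher. That mean includes the +Dox arrays, so spots could pass it through high +Dox values. The filter on genes has the same limit. In CNOT2 -Dox cells ZNF541 was at 1.9 and 2.4 and POLR2M at 2.37 and 2.17, all below 2.96.

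The 88 lower genes had smaller differences. None was 4-fold lower in both pairs, compared with 11 genes that were 4-fold higher. Of their 53 further spots, from 25 genes, 19 were negative in both pairs and 0 were >2-fold lower in both. Of the 31 with a mean of at least 2.96 over the CNOT2 arrays, 11 were negative in both pairs. Small nucleolar and Cajal body RNAs, which guide the modification of other RNAs, were among them. SCARNA11 was at 2.88 and 2.02 in CNOT2 +Dox cells, against 5.06 and 3.86 in CNOT2 -Dox cells. SCARNA14 was at 6.38 and 5.57 in +Dox cells, against 7.89 and 7.0 in -Dox cells. Both were separated between the groups, as were 73 of the 88 genes. SCARNA14, with Luci differences of 1.03 and -1.11, was above the array median of 3.34 on all 4 arrays. SNORD69 differed by -1.63 and -1.69, SNORA5A by -1.60 and -2.09, and SNORA51 by -1.63 and -1.46. Over all H/ACA and Cajal body RNAs, grouped by symbol after the values were seen, 5 of 119 were >2-fold lower in both pairs (4.2%, against 0.585% of all genes). In this group 1 was >2-fold higher (0.84%, against 1.3%) and 67 were negative in both (56.3%, against 27.9%). Their median was -0.39 in replicate 1 and -0.43 in replicate 2, compared with 0.31 and -0.02 in Luci cells. For the 113 C/D box RNAs it was -0.18 and -0.19. Most of these RNAs lie in introns, so a spot may also read the host transcript.

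ZNF genes, a large family of zinc finger factors grouped in the same way, were also shifted, with medians of -0.21 and -0.25 over 451 genes (Luci -0.05 and -0.07). Of these 204 were negative (45.2%, against 27.9% of all genes) and 70 positive in both pairs (15.5%, against 29.3%). In both pairs 8 were >2-fold lower (1.77%, against 0.585% of all genes), among them ZNF141 with -1.41 and -1.44, and ZNF114 and ZNF541 were >2-fold higher (0.443%, against 1.3%). Further lower genes were CRKL, an adaptor of receptor tyrosine kinases (-1.56 and -2.24), AIFM2, an oxidoreductase that protects from ferroptosis (-1.51 and -1.97), MAB21L1 (-1.64 and -1.82), PKI55 (-1.77 and -1.80), AMN1 (-1.74 and -1.49), DTNB, a dystrobrevin (-2.15 and -1.48), TXNL4B (-1.44 and -1.59) and ASB8 (-1.44 and -1.38). A second, dim spot of AIFM2 had 0.12 and -0.44. CRKL was also >2-fold lower in both Luci pairs (-1.88 and -1.29), and the difference between both lines was -0.32 ± 0.37 (SE, limma, adjusted p = 0.999). The glucose transporter SLC2A1, at 7.94 and 7.91 in CNOT2 +Dox cells, against 8.91 and 9.23 in CNOT2 -Dox cells, was another gene that was lower with Dox in Luci cells (-1.17 and -0.65).

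No histone gene was >2-fold different in both pairs, where 1.3% of all genes were higher and 0.585% lower. All 13 tested H4 genes were negative in both pairs (100%, against 27.9% of all genes), with medians of -0.45 and -0.97 (Luci 0.19 and -0.42). HIST1H4A was at 7.47 and 5.92 in CNOT2 +Dox cells, against 7.93 and 7.81 in CNOT2 -Dox cells. Of 16 H2B genes 12 were positive in both pairs (75%, against 29.3% of all genes), with medians of 0.41 and 0.48 (Luci 0.07 and -0.08). H3 genes had medians of -0.095 and -0.30, with 7 of 12 negative (58.3%, against 27.9% of all genes) and 0 positive in both pairs. H2A genes had medians of -0.12 and -0.25, with 9 of 15 negative in both (60%, against 27.9%). HIST1H2BK, of the H2B type, was at 12.10 and 12.01 in +Dox cells, against 11.07 and 11.07 in -Dox cells. Copies of one histone type are nearly identical and share signal, so they count as few independent genes, and this grouping was made after the values were seen. Of 28 mitosis genes 20 were positive in both pairs (71.4%, against 29.3% of all genes), with medians of 0.145 and 0.35 (Luci -0.075 and 0.01), among them CCNB1 with 0.59 and 1.18. Of 26 genes of S phase 13 were negative in both (50%, against 27.9%), with medians of -0.09 and -0.13 (Luci -0.125 and 0), among them CCNE2 with -1.0 and -0.72. Cytoplasmic ribosomal proteins, at the bright end of the scale, had medians of -0.01 and 0.005, and nuclear subunits of oxidative phosphorylation had -0.06 and -0.09.

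Some genes had a large difference in a single pair and less than 1.5-fold in the other on their brightest spot. MYBPH, a myosin-binding protein, was at 7.64 and 2.50 in CNOT2 +Dox cells, against 3.06 and 1.98 in CNOT2 -Dox cells, and C11orf87 was at 7.0 and 2.52, against 2.48 and 2.49. Only the first +Dox array was high for both. INHBA, the activin A subunit, was at 5.27 and 5.07 in +Dox cells, against 5.64 and 10.22 in -Dox cells, with the second -Dox array alone being high on all 10 spots. On 5 of these spots INHBA was >2-fold lower in both pairs, with differences of -1.35 to -0.37 in replicate 1 and -5.15 to -4.21 in replicate 2 over all 10 spots. The second Luci -Dox array was also high for INHBA, at 7.15, against 2.88 with Dox. MT1F, a metallothionein, had 0.24 and 3.08 in CNOT2 and -0.69 and 1.99 in Luci cells. Others of this kind were ENPEP, ARG1 and PRAMEF13, higher in replicate 1 only (3.37 to 3.57), OR51G1, B3GNT4, SPOCD1 and ANKRD58, higher in replicate 2 only (3.07 to 4.05), and SEMG2, OR52R1, RXFP2 and LILRA1, lower in replicate 2 only (-3.98 to -4.49). Their further, dimmer spots mostly lacked differences of this size. In replicate 2 the other spots of RXFP2 had -0.9 to 0.78, those of OR51G1 -0.85 to 1.96 and that of OR52R1 -0.46. In replicate 1 the second spot of ARG1 had 1.41 and that of PRAMEF13 0.24.

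The genes >2-fold higher in both CNOT2 pairs were also set against the other knock-downs. In the CNOT3 line 77 of the 195 genes (39.5%) were >2-fold higher with Dox, against 5.46% of all genes, and in the CNOT1 line 40 (20.5%), against 4.83%. Their median difference was 0.80 in the CNOT3 line, 0.31 in the CNOT1 line, and -0.09 and 0.51 in the Luci pairs. Both lines had 1 array per condition, so no test was made. The genes higher in both of these lines numbered 131, of which 18 were among the 195, that is 9.23% of the CNOT2 genes and 13.7% of the 131 genes. Of all genes 0.872% were higher in both of these lines and 1.3% in both CNOT2 pairs. They included HLA-DPB1, IFI35, PARP10, TAC3, TMEM173 and ACVRL1, a TGF-beta family receptor. Of the 88 lower genes 10 each (11.4%) were >2-fold lower in the CNOT1 line, against 3.24% of all genes, and in the CNOT3 line, against 4.09%, and 0 of 52 genes lower in both of these lines were among the 88. NFYA had -0.78 in CNOT1 cells and -1.19 in CNOT3 cells. The 195 higher and the 88 lower genes were dimmer than all genes, with median levels of 4.42 and 3.92 against 7.32. The shares over all genes are therefore not matched for level, here and for the Luci pairs.

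**Figure D5:**
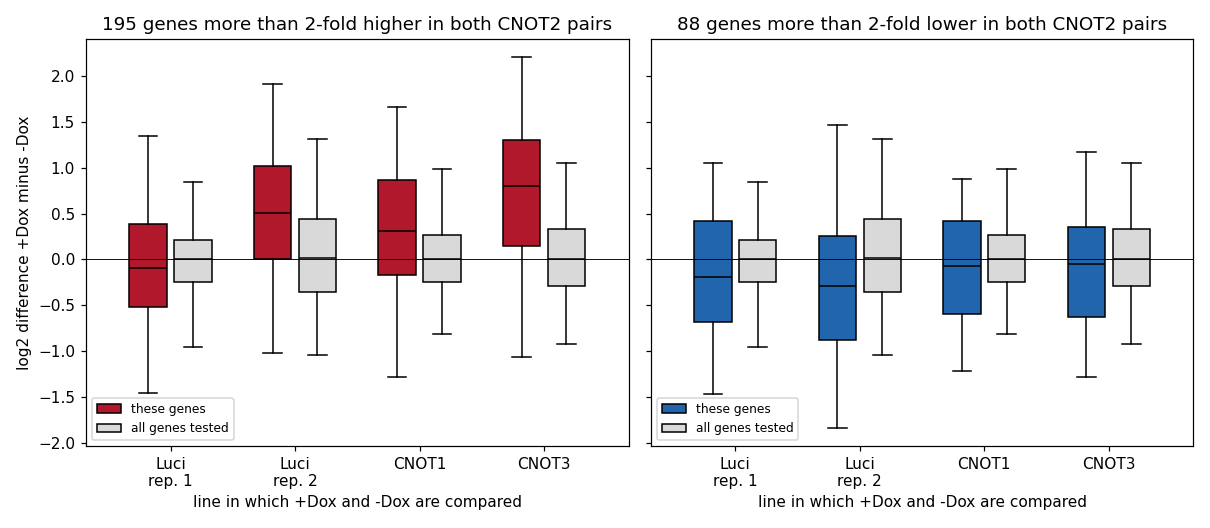
Log2 difference between +Dox and -Dox cells in both Luci pairs and in the CNOT1 and CNOT3 lines for the 195 genes higher (left, red) and the 88 genes lower (right, blue) in both CNOT2 pairs, beside all genes tested (grey). Boxes show quartiles and median and whiskers the 5th and 95th percentiles, and the red median is highest in the CNOT3 line, at 0.80.

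Over all 12 arrays the levels of AGAP1 (r = 0.95), HOXA2 (0.93), ANKRD52 (0.92), HIST1H4D and HIST1H4A (0.91 each) were most like those of CNOT2. HAUS4 (-0.93), RTBDN (-0.92), RBBP7 (-0.92), PPAPDC2 (-0.91) and ADAMTSL4 (-0.90) ran most opposite. These values are descriptions, since the arrays share lines and experiments.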

How the data were processed

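RNA of HEK-293T clones was amplified from 200 ng, Cy3-labeled and hybridized to 1-colour Agilent arrays. According to the methods, the authors took log mean spot signals, applied NormExp background correction based on negative controls and then quantile normalization. The base of the deposited log values is not stated, and they were read as log2 because they run from 1.56 to 15.98, and limma is named in the submitters' processing notes. They hold no detection calls or depth, so precision is limited by how many arrays there were. Of 62976 spots 37051 had 1 gene symbol from the platform annotation, 36914 of these had values on all 12 arrays, and all columns were assigned to a sample (0 left over). The brightest spot over the 12 arrays stood for each of 20042 genes, and genes were dropped if their mean over the CNOT2 and Luci arrays fell under the 25th percentile.

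The 8 CNOT2 and Luci arrays were fitted with limma 3.58.1 (R 4.3.3), using 4 group means and the replicate number as a block, without an intensity trend, followed by Benjamini-Hochberg adjustment over all genes. The fit was run on simulated data to check that its mean estimates matched the differences put in. These data had independent noise and no replicate effect, so they do not show how often the fit finds real differences here. The replicate numbers come from the titles, and the paper says that the array experiment was repeated without stating which arrays were handled together. Deviations from the group means correlated between same-numbered arrays (r of 0.359 to 0.606 over 6 pairs of groups). The 2-fold limit in both pairs had no test. Members and lists were chosen with earlier results of these data known. Named are CNOT2, the leading 15 genes in each direction that were >2-fold different in both pairs, up to 5 genes per direction that differed in 1 pair only (under 1.5-fold in the other), in each list the genes >2-fold different in both pairs or else the 2 largest, further list members for context, and the 5 genes most and least like CNOT2. Promoters came from RefSeq (GRCh38.p14). Alternatives were other fits, filters, normalizations, spots and left-out arrays.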

Additional observations from a re-analysis of the deposited data

Results flagged for a closer look

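The blood cell signalling genes had a median difference of 0.54 over both CNOT2 pairs, with positive medians in both (0.55 and 0.78) and negative ones in both Luci pairs (-0.07 and -0.10). The same held for the annexins and galectins, with a median of 0.235 over both CNOT2 pairs (0.24 and 0.50) and -0.01 and -0.19 in the Luci pairs, led by LGALS1 (0.76 and 1.25) and ANXA4 (0.61 and 0.56). These are the lists with at least 5 tested genes whose medians exceeded 0.2 in both CNOT2 pairs and ran the other way in both Luci pairs. The differences between the lines were not tested for the lists, and no single gene passed the test between the lines. Both lists were chosen with earlier results of these data known, so their medians are no independent evidence.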

How the results depend on the processing

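The count of genes past an adjusted p of 0.05 stayed at 0 under every alternative but the intensity trend with a robust prior and, added after seeing the data, the 4 CNOT2 arrays alone with a trend, which gave 1 gene each (RINL, adjusted p = 0.0428 and 0.0496, limma). Without the replicate block it was 0 as well, with 602 genes at an unadjusted p under 0.05 against 1398 with the block, and the block changed no call. The difference between the lines gave 0 genes throughout, also without the second Luci -Dox array, and leaving out each CNOT2 array gave 0 to 0 for both counts.

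CNOT2 kept its sign under all alternatives, with differences of -1.34 to -0.26 and adjusted p of 0.125 to 1 (limma), and of -1.34 to -0.90 when each array was left out. The mean over both spots gave -0.27. The median of the MHC class II chains stayed within the spread of the pairs, with 1.08 to 1.94 for single pairs, 1.23 for the mean of spots and 1.11 without the filter.

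The counts of genes past the fold limit in both pairs (195 higher, 88 lower) depended on the limit and the filter. They were 646 and 412 at 1.5-fold, 37 and 5 at 3-fold, and 49 and 15 with a filter at the 50th percentile. Values below the median set to it left 37 lower genes, and crossed pairs 55. Single pairs gave 667 to 1362 higher and 524 to 884 lower genes. Added after seeing the data, the demand that each +Dox array differ >2-fold from each -Dox array left 111 and 29 genes, and leaving out genes >2-fold different the same way in either Luci pair left 130 and 58.

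Of 1989 values for single named genes under alternatives, 7 reversed. These were CD4 with the mean of its spots (-0.25), CSF3R with low values set to the median (-0.0), and 5 values with a CNOT2 array left out. With each array left out in turn, ARG1 ran between -0.50 and 3.77, PRAMEF13 between -0.21 and 3.33, XKR9 between -2.76 and 0.027, and CD79A between -0.55 and 0.38, reversing without the first -Dox array (ARG1, and CD79A at 0.13) or the first +Dox array (PRAMEF13, XKR9, CD79A). Dim genes limit these counts, since 57.9% of the higher and 71.6% of the lower genes lay in the dimmest of 4 equal bins.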

Other observations

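Spots with no gene symbol, which the comparison did not use, gave no excess over the control line. Of 7406 such spots above the filter, 77 (1.04%) were >2-fold higher and 66 (0.891%) >2-fold lower in both CNOT2 pairs, compared with 86 (1.16%) and 98 (1.32%) in both Luci pairs.

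The 195 higher genes were spread over the genome. Chromosome 6, with the class II region, held 14 of them among 836 tested genes (1.67%), against 1.3% of all genes. The share was highest on chromosome 15, with 10 of 484 genes (2.07%), and chromosome 19, with 22 of 1076 (2.04%), and chromosome 13 held 0 among 276.

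Mitochondrially encoded genes had medians of 0.07 and 0.03 in the CNOT2 pairs, but of 0.11 and 1.55 in the Luci pairs. Metallothioneins had -0.21 and 1.72 in the CNOT2 pairs and -0.11 and 1.32 in the Luci pairs, so the larger value stood in replicate 2 of both lines.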
